A study of Mus musculus with 4 samples.

Results

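Sox17, Sox18 and Sox7 make up the SOXF group of SOX transcription factors. They were followed here in the liver of mouse fetuses with 1 or 2 working copies of Sox17. Members were chosen by name: every probe set of the array whose platform annotation gave exactly 1 gene symbol, and that symbol was 1 of the 3 gene names. This gave 5 probe sets out of 45037, 2 for Sox17, 1 for Sox18 and 2 for Sox7. No measured value entered this rule, but the members were chosen with earlier results of these data known.

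Livers came from C57BL/6 fetuses of stage 17 dpc, 2 wildtype and 2 Sox17+/-, and total RNA of each was read on 1 Affymetrix array. Fathers were Sox17+/- and mothers were C57BL/6 females not described as carriers, so fetuses of both genotypes came from the same kind of cross. The labels say that the liver was separated from the biliary system before extraction. The make-up of the mutant allele, the sex of the fetuses, and the number of fetuses behind each RNA were not given in the sources used here.

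SOX proteins bind DNA through a high mobility group domain, and the SOXF group is best known for its work in blood and lymph vessels. Sox17 is also a factor of the early endoderm, of the gallbladder and extrahepatic bile duct epithelium, and of fetal blood stem cells. In vessels it is tied to the arterial state. Sox18 acts in early vessels and starts the lymphatic programme, and Sox7 acts in vessel and blood precursors. The SOXF proteins can stand in for each other in several vascular beds, and loss of 1 gene may be covered by the others depending on the mouse strain.

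Values are MAS5 signals, the linear brightness of a probe set on 1 array after each array was scaled to a trimmed mean of 500. Tests used limma on log2(signal + 16), with p-values adjusted over the 22519 brighter probe sets. The median signal of an array was 84.7 to 103. On wildtype array 1 the Actb 3' control probe set gave 11909.5, where the others gave 24712 to 35014. Its ratio of the 3' to the 5' Actb signal, a sign of RNA quality, was 1.95 against 1.20 to 1.43, and the part of this in the differences was not tested beyond leaving that array out. Hepatocyte genes were among the brightest, with Alb at 40785 and 23777 on the wildtype and 42354 and 22768 on the Sox17+/- arrays. Of the pancreas markers, Pdx1, Cpa1 and Ptf1a were below the brightness limit of the test, as were the intestine markers Cdx2, Vil1 and Cdh17, while Prss2, Cela1 and Fabp2 were above it. No probe set passed the adjusted threshold of 0.05 in the limma fit (0% of those tested), and no single-gene difference below is therefore called.

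Sox17 was lower in both Sox17+/- livers than in either wildtype liver, on both of its probe sets. On the brighter one (1429177_x_at) the signals were 244 and 264 in wildtype and 139 and 124 in Sox17+/- liver. On the other (1421657_a_at) they were 238 and 167 in wildtype and 105 and 99.6 in Sox17+/- liver. The Sox17+/- arrays were close to each other on both probe sets, and the spread was widest between the wildtype arrays on the second. The group means on the brighter probe set were 254 ± 14.0 and 132 ± 10.8 (mean ± SD, n = 2 each).

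The Sox17 log2 difference was -0.87 on each probe set, with 95% intervals of -1.39 to -0.36 and -1.49 to -0.25 before any adjustment. With limma the unadjusted p was 0.00698 and 0.0152 and the adjusted p was 0.9999 for both. Only 1.16% and 1.19% of the tested probe sets had a difference as low or lower. At an unadjusted p under 0.05, 2.31% of the tested probe sets were lower and 1.79% higher. Both Sox17+/- arrays lay below both wildtype arrays for 16.9% of all tested probe sets, and above them for 14.1%. With each array centred on its median these shares were 10.4% and 16.6%, and the Sox17 groups still did not overlap.

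The ratio of Sox17+/- to wildtype signal was 0.571 and 0.441 on the 2 probe sets between the arrays numbered 1, and 0.470 and 0.597 between those numbered 2. The order of the probe sets thus turned over between the array numbers. Within an array the second probe set gave 0.975 and 0.633 of the signal of the first in wildtype and 0.753 and 0.804 in Sox17+/- liver. The name of the brighter probe set ends in _x_at, the mark that the array maker gives to probe sets with some probes that also match other sequences. That of the other ends in _a_at, the mark of probe sets that read several transcripts of 1 gene. The position of the mutation relative to these probes is not known from the labels, and whether the lower signal reads the mutation itself was not tested. In bulk liver, fewer Sox17-expressing cells and less Sox17 RNA per cell cannot be told apart.

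Sox18 lay on the other side, higher in both Sox17+/- livers than in either wildtype liver. Its 1 probe set (1449135_at) had signals of 345 and 403 in wildtype and 542 and 495 in Sox17+/- liver. The gap between the groups, from 403 to 495, was wider than the spread within either. The means were 374 ± 41.3 and 518 ± 33.3 (mean ± SD, n = 2 each), and their ratio was 1.39. The log2 difference was 0.46, with a 95% interval of -0.08 to 0.99 (limma, unadjusted p = 0.0788, adjusted p = 0.9999). Of the tested probe sets, 6.60% had a higher difference.

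Sox7 was also higher in Sox17+/- liver on its brighter probe set (1416564_at). The signals were 172 and 173 in wildtype and 256 and 212 in Sox17+/- liver. The wildtype arrays almost coincided, and both Sox17+/- arrays were above them, by unequal amounts. The means were 172 ± 0.604 and 234 ± 31.1 (mean ± SD, n = 2 each), and their ratio was 1.36. The log2 difference was 0.40, with a 95% interval of -0.13 to 0.94 (limma, unadjusted p = 0.111, adjusted p = 0.9999). The intervals of Sox18 and Sox7 both include 0 and also include values as far from 0 as that of Sox17.

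The other Sox7 probe set (1432495_at) went the opposite way. Its signals were 78.5 and 39.9 in wildtype and 16.2 and 3.61 in Sox17+/- liver. It was dim, at the 23.8 percentile of all probe sets by mean brightness, and did not enter the main test. In a limma fit with no brightness limit its log2 difference was -1.53, with an SE of 0.42 and an adjusted p of 0.927. The platform annotation ties it to another transcript record (AK009704) than the brighter one (NM_011446), so the Sox7 probe sets disagree, and which of them follows the main Sox7 transcript was not tested.

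**Figure D1:**
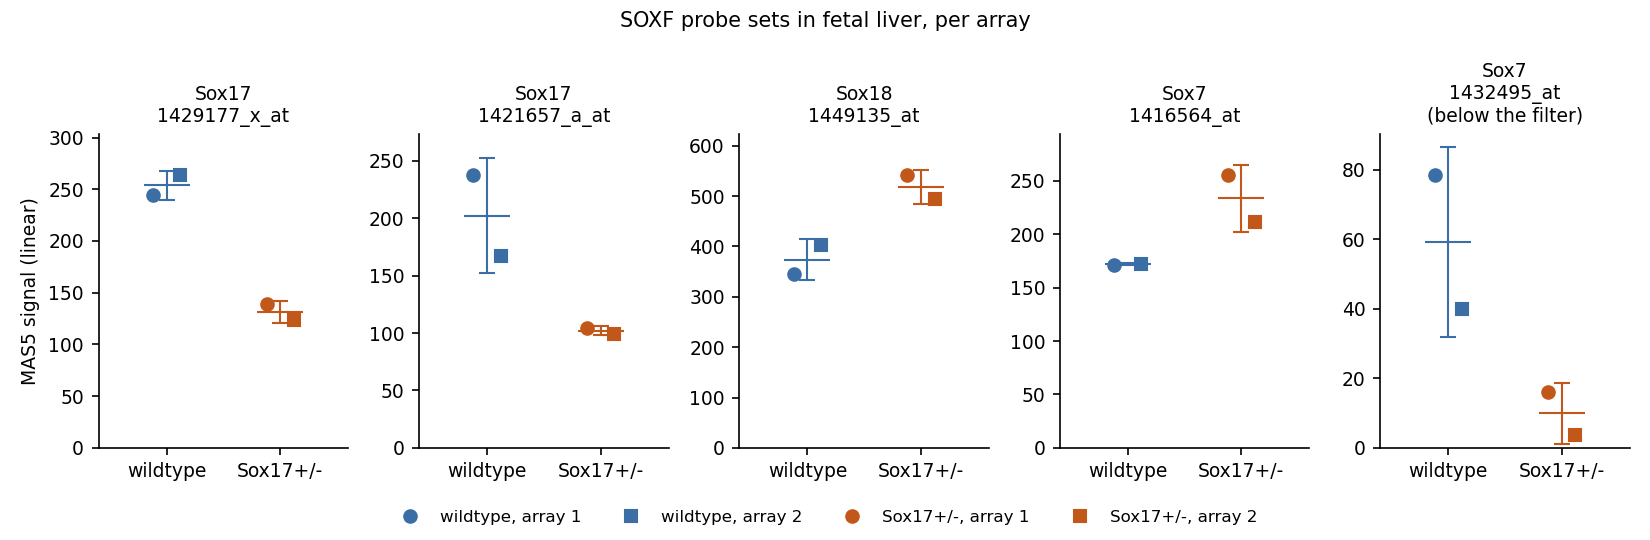
MAS5 signal (linear, vertical axis from 0) of the 5 SOXF probe sets in wildtype and Sox17+/- fetal liver. Circles and squares are the arrays numbered 1 and 2, and the bars are mean ± SD (n = 2 each). Both Sox17 probe sets are lower in Sox17+/- liver (254 against 132 and 202 against 102), Sox18 and the brighter Sox7 probe set are higher (374 against 518 and 172 against 234), and the dim Sox7 probe set is lower.

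Of the 4 SOXF probe sets tested, 2 were thus lower and 2 higher without overlap between the genotypes, and none overlapped. Over all tested probe sets, 16.9% were lower and 14.1% higher in this way. Both lower SOXF probe sets in the test were of Sox17, and the dim Sox7 probe set, also lower, was not in it. The directions of the tested probe sets held with median centring and with quantile normalization. They also held with either other offset, with no brightness limit and with any 1 array left out. These last settings cannot turn the direction of groups that do not overlap. None of the SOXF probe sets was among the brighter 25%. Without wildtype array 1 the log2 differences were -0.93 and -0.63 for Sox17, 0.35 for Sox18 and 0.40 for Sox7. Between the arrays numbered 1 the ratio of Sox17+/- to wildtype signal was 1.57 for Sox18 and 1.49 for Sox7, and between those numbered 2 it was 1.23 for both.

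Ratios taken within an array do not depend on how the arrays were scaled to each other, apart from the offset. They were taken on the brighter probe sets of Sox17 and Sox7. The second Sox17 probe set, with wildtype signals farther apart (238 and 167, against 244 and 264), was not used. The spreads given below for Sox17 therefore hold for its brighter probe set only. The log2 ratio of Sox17 to Sox18 was lower by 1.33 in Sox17+/- liver, with a pooled SD of 0.06. Relative to the wildtype mean it was 0.06 and -0.06 on the wildtype arrays and -1.32 and -1.34 on the Sox17+/- arrays. The log2 ratio of Sox17 to Sox7 was lower by 1.27 (pooled SD 0.07), at -1.33 and -1.22 on the Sox17+/- arrays. The ratio of Sox18 to Sox7 differed by 0.05 (pooled SD 0.12), less than the spread between replicates, and its groups overlapped. Set against Sox18 in the same way, 72.3% of all tested genes were lower without overlap, and set against Sox7 65.5% were, while 1.07% and 1.45% were higher. Both genes were themselves high in Sox17+/- liver, so a lower ratio to either is common and its separation alone says little.

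On its brighter probe set, Sox17 was also lower relative to the mean of pan-endothelial genes in bulk liver RNA, which is not a count of vessel cells. The mean log2 signal of 14 pan-endothelial genes differed by 0.04 between the genotypes (pooled SD 0.12) and its groups overlapped. Relative to it, Sox17 was lower by 0.91 in Sox17+/- liver (pooled SD 0.16), at -0.16 and 0.16 around the wildtype mean on the wildtype arrays and -0.88 and -0.94 on the Sox17+/- arrays. Sox18 was higher by 0.42 (pooled SD 0.22) and Sox7 by 0.37 (pooled SD 0.14) relative to the same mean. Of all tested genes, 21.4% were lower and 9.9% higher without overlap when set against it. With 2 arrays per genotype the lowest p of an exact two-sided permutation test is 0.333, and 5 of the 7 contrasts gave that value (0.467 after Benjamini-Hochberg adjustment over the 7). The exceptions in the permutation test were the ratio of Sox18 to Sox7 (p = 0.667) and the pan-endothelial mean (p = 1).

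**Figure D2:**
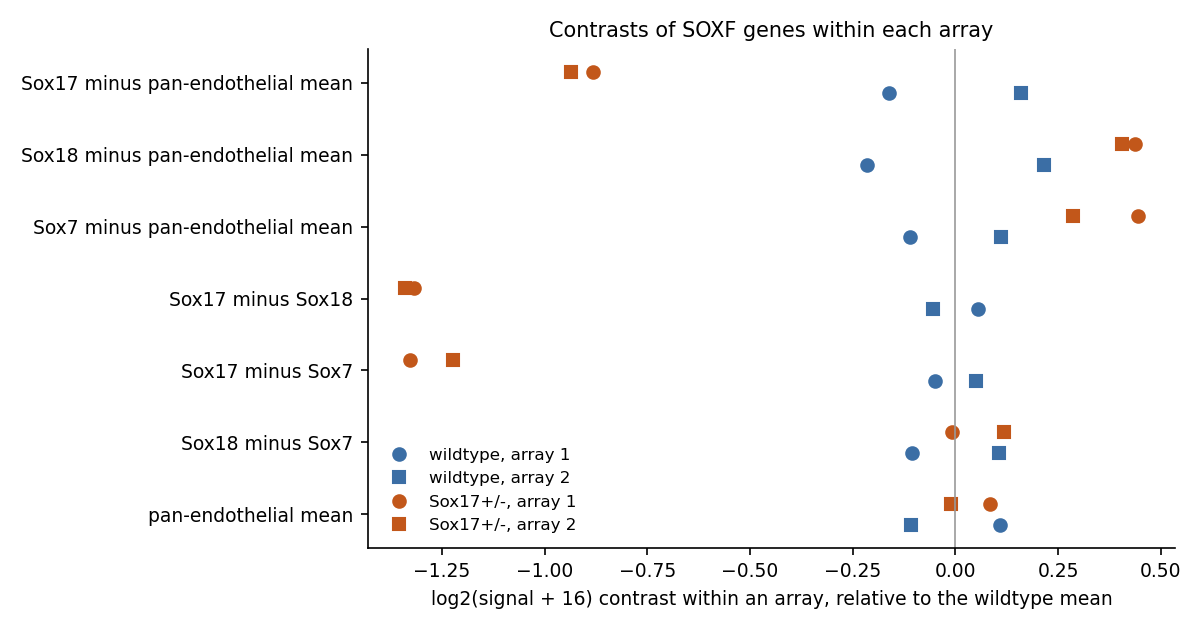
Differences of log2(signal + 16) taken within each array, relative to the wildtype mean of each (horizontal axis, log2 units), for the SOXF genes against the mean of 14 pan-endothelial genes and against each other, with the pan-endothelial mean alone in the last line. Circles and squares are the arrays numbered 1 and 2. Sox17 and Sox7 are read on their brighter probe sets only. Sox17 against Sox18 is at -1.32 and -1.34 on the Sox17+/- arrays, while Sox18 against Sox7 stays between -0.10 and 0.12 on all 4.

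Among the other SOX genes, judged by their brightest probe sets, Sox13 had a log2 difference close to that of Sox17. It belongs to the SOXD group and is known from arteries and lymphocytes. Its signals were 319 and 322 in wildtype and 188 and 165 in Sox17+/- liver. The wildtype arrays almost coincided and both Sox17+/- arrays were below them (log2 difference -0.81, SE 0.20, limma unadjusted p = 0.00951, adjusted p = 0.9999).

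Of 15 listed SOX genes outside the SOXF group, 9 were bright enough to be tested. Both Sox17+/- arrays were below both wildtype arrays for 2 of them, Sox13 and Sox4, and above for 1, Sox21, against 18.6% and 14.6% of all tested genes. No listed SOX gene passed the adjusted test, and their median log2 difference was -0.14 against -0.02 over all tested genes. Sox4, a SOXC factor of progenitor cells, had 1971 and 1591 in wildtype and 1537 and 1499 in Sox17+/- liver on its brightest probe set (log2 difference -0.22). Its 3 other tested probe sets were dimmer, overlapped between genotypes and pointed up, with log2 differences of 0.73 to 0.997, so its direction is unsettled.

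Sox6, a SOXD factor that helps silence embryonic globin in red cell precursors, had a log2 difference of -0.16 on the brightest of its 4 tested probe sets. On the dimmest it was 0.69 (95% interval 0.11 to 1.28 before adjustment). That probe set was higher without overlap, with 745 and 908 in wildtype and 1476 and 1216 in Sox17+/- liver. The other tested Sox6 probe sets overlapped, so its probe sets disagree. Sox9, the factor of the bile duct lining, had 144 and 76.3 in wildtype and 149 and 80.1 in Sox17+/- liver. Its level followed the array number and not the genotype. Sox11 and Sox12, the remaining SOXC genes, had log2 differences of 0.04 and -0.14, Sox21 had 0.22, and Sox5 and Sox10 had -0.27 and -0.11. Sox2, Sox3, Sox8, Sox14, Sox15 and Sox30 were below the brightness limit.

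**Figure D3:**
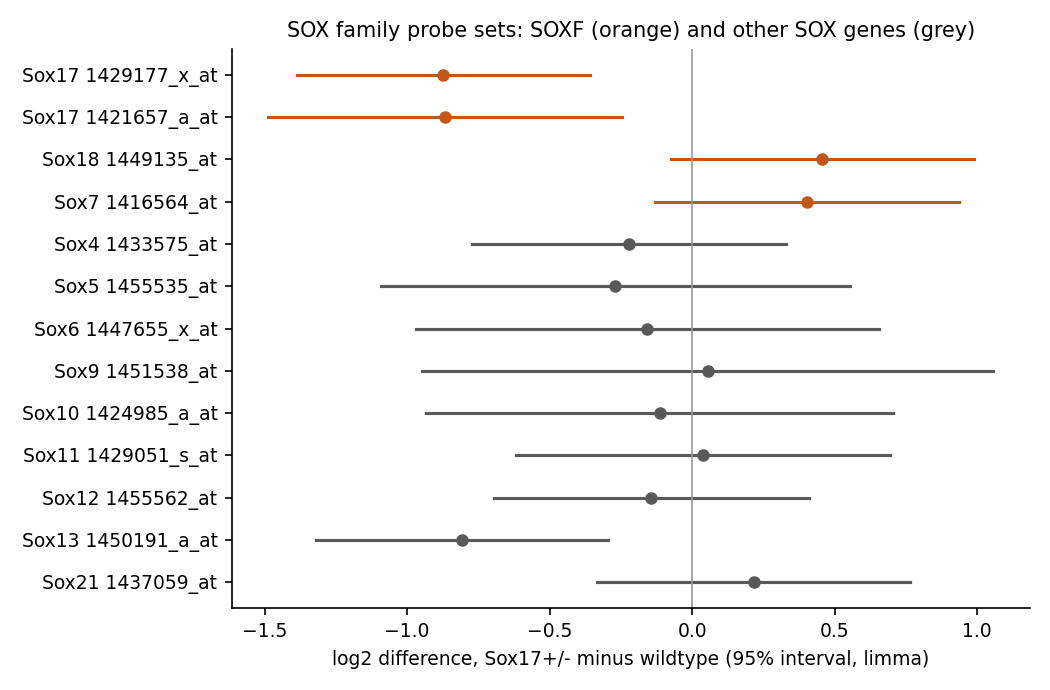
Log2 difference, Sox17+/- minus wildtype (horizontal axis), with its 95% interval from limma before adjustment, for the 4 tested SOXF probe sets (orange) and the brightest tested probe set of 9 other SOX genes (grey). The intervals of both Sox17 probe sets and of Sox13 lie below 0 (-0.87, -0.87 and -0.81), and those of all other probe sets drawn include 0.

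Endothelial genes mark the cells that normally carry the SOXF factors. Over all tested genes, 18.6% lower and 14.6% higher without overlap is the share against which the counts of each list below stand. All 14 pan-endothelial genes were tested and none passed. Of these, 5 were higher (35.7%, against 14.6% of all tested genes) and 3 lower (21.4%, against 18.6%) without overlap, and the median log2 difference was 0.10. Their summed signal was 6954 to 8028 in wildtype and 7204 to 7709 in Sox17+/- liver. The junction gene Cdh5 had 499 and 409 in wildtype and 488 and 495 in Sox17+/- liver, overlapping. Its other probe set, below the brightness limit, was higher without overlap, with 61.7 and 82.0 against 86.6 and 95.5. Kdr, the main VEGF receptor, had 375 and 346 against 379 and 405.

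The members of this list went in both directions. Pecam1, an adhesion molecule of all endothelium, had 457 and 411 in wildtype and 735 and 503 in Sox17+/- liver (log2 difference 0.47). Robo4, a guidance receptor that stabilises vessels, had 220 and 185 against 274 and 304 (log2 difference 0.48). Tek, the angiopoietin receptor, was lower, with 460 and 304 against 210 and 296, though its groups nearly met at 304 and 296 (log2 difference -0.56). Plvap, a protein of fenestrated vessels, had 649 and 917 against 515 and 633 (log2 difference -0.42).

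Sinusoidal endothelial genes were all 10 tested, with 4 higher and 1 lower without overlap (all tested genes, 14.6% and 18.6%) and a median log2 difference of 0.08. Stab2, a scavenger receptor of sinusoids, had 1337 and 1145 in wildtype and 1098 and 1379 in Sox17+/- liver. Lyve1, a hyaluronan receptor of sinusoids and lymph vessels, was higher on both of its probe sets (log2 differences 0.28 and 0.83). Gpr182 and Flt4, both receptors of sinusoidal and lymphatic endothelium, had log2 differences of 0.60 and 0.39. Flt4 was also higher on its second probe set (log2 difference 0.46). The secreted nuclease gene Dnase1l3 was lower, with 283 and 290 in wildtype and 163 and 175 in Sox17+/- liver (log2 difference -0.71, SE 0.20, limma unadjusted p = 0.0142). Its other probe set, below the brightness limit, overlapped.

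Of 14 arterial genes 12 were tested, with 3 higher and 2 lower without overlap (25% and 16.7%, against 14.6% and 18.6% of all tested genes). The median log2 difference was 0.05. Hey1, a Notch effector of arterial cells, had 133 and 137 in wildtype and 60.9 and 79.8 in Sox17+/- liver. Its log2 difference of -0.82 (SE 0.22, limma unadjusted p = 0.0123, adjusted p = 0.9999) was the lowest of the list. Notch4, a Notch receptor of endothelium, was higher on its brightest probe set, with 103 and 66.8 against 135 and 134 (log2 difference 0.60). Below the brightness limit, another Notch4 probe set overlapped and a further one was lower, with 28.7 and 13.6 against 12.5 and 10.6. Unc5b, a guidance receptor of arteries and tip cells, had a log2 difference of 0.59, and its dimmer probe set, below the brightness limit, overlapped. Notch4 and Unc5b were dim in wildtype (means of 85.0 and 81.7) and Hey1 in Sox17+/- liver (mean of 70.3). The arterial ligand Efnb2 and the gap junction gene Gja4 overlapped, with log2 differences of 0.24 and -0.18, and Gja5 was below the brightness limit. Nrp1 was lower on its brightest probe set (-0.18) and higher on 2 others (0.21 and 0.31).

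Genes tied to SOXF factors in studies of vessels or endoderm were listed separately, 18 in all, several of them also on the endothelial lists. Of 17 tested, none passed, and the median log2 difference was 0.12. Without overlap, 6 were higher (35.3%, against 14.6% of all tested genes) and 3 lower (17.6%, near the 18.6% of all tested genes). Notch1, a receptor with a SOXF-bound arterial enhancer, had 272 and 338 in wildtype and 415 and 413 in Sox17+/- liver on the brighter probe set (log2 difference 0.43), but a log2 difference of -0.01 on its second. Lama1, a basement membrane laminin of endoderm, had 112 and 56.8 against 154 and 125 (log2 difference 0.68). The brightness limit used all 4 arrays, so a gene dim in 1 genotype could enter the test through the other. Of the higher genes, Lama1, Unc5b and Notch4 were dim in wildtype (means of 84.3, 81.7 and 85.0). Of the lower ones, Hey1 was dim in Sox17+/- liver (mean of 70.3). The higher count is to be read with this limit. Dll4, the arterial Notch ligand, had 123 and 202 against 184 and 190, within the wildtype spread.

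Prox1, the lymphatic regulator that Sox18 switches on and that hepatocytes also make, had 139 and 250 in wildtype and 265 and 241 in Sox17+/- liver. The tight junction gene Cldn5 had 608 and 665 against 778 and 597, and both genes overlapped. Vcam1, an adhesion molecule, had a log2 difference of -0.14 on its brightest probe set and -0.39 and -0.43 on 2 others, where both Sox17+/- arrays were below both wildtype arrays. Hey1 and Tek, given above, were the lowest of this list.

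Of 20 transcription factors that work beside SOXF proteins in vessels 17 were tested, with a median log2 difference of 0.04. Without overlap, 2 were higher and 4 lower (11.8% and 23.5%, near the 14.6% and 18.6% of all tested genes). The ETS factors Erg and Fli1, which hold endothelial identity, had log2 differences of 0.05 and 0.04 on their brightest probe sets. The second tested probe set of Fli1 was higher without overlap, with 316 and 441 in wildtype and 517 and 530 in Sox17+/- liver (log2 difference 0.47). The ETS factor Ets1 had 0.36 on its brightest probe set and 0.16, -0.11 and -0.09 on the others, the last lower without overlap, so its probe sets disagree. Klf2, which responds to blood flow, had 246 and 255 in wildtype and 173 and 188 in Sox17+/- liver (log2 difference -0.44, SE 0.20, limma unadjusted p = 0.0749). Gata2, a factor of endothelium and blood progenitors, had 399 and 426 against 347 and 247 (log2 difference -0.47), and was lower on its second probe set as well (log2 difference -0.19). Tal1, shared by endothelium and red cell precursors, had a log2 difference of 0.11.

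**Figure D4:**
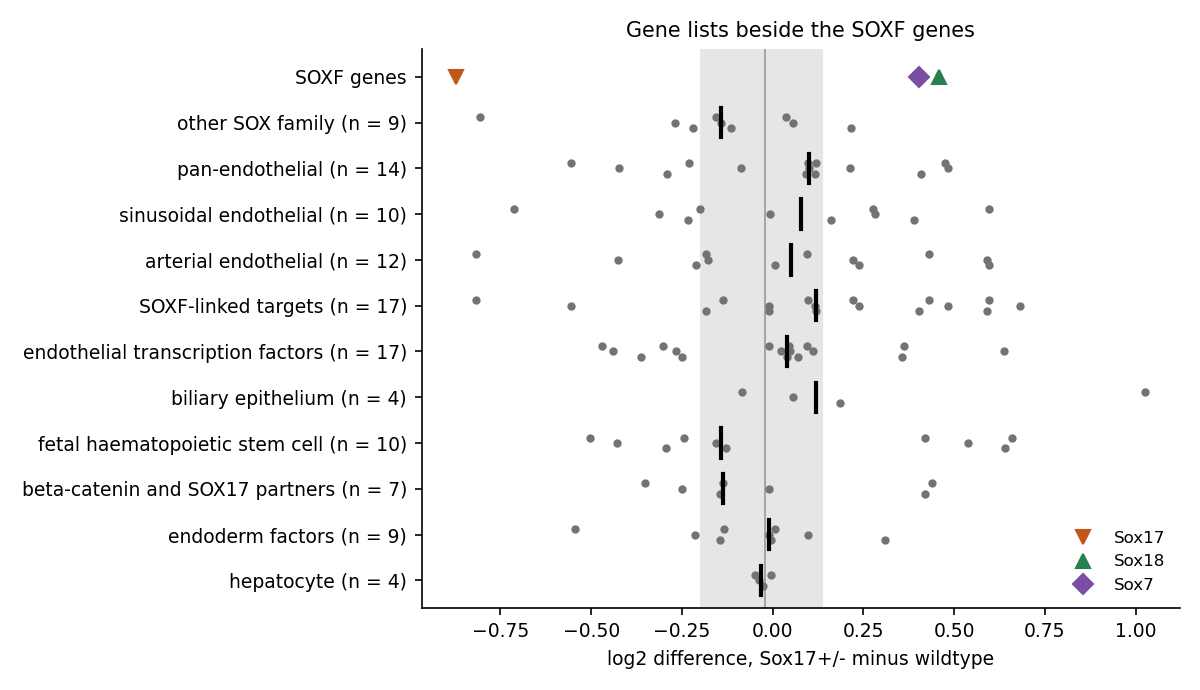
Log2 difference, Sox17+/- minus wildtype (horizontal axis), of the tested genes of each list (grey points, brightest probe set per gene) with the list's median (black bar), below the 3 SOXF genes. The grey band spans the quartiles of all tested genes (-0.20 to 0.13). The medians of the lists drawn, those with at least 3 tested genes, lie inside the band. Sox17 at -0.87, Sox18 at 0.46 and Sox7 at 0.40 lie outside it, as do single list genes such as Hey1 (-0.82) and Cldn4 (1.03). Hey1 was dim in Sox17+/- liver and Cldn4 in wildtype. The band describes single genes, and a median of several genes varies less than a single gene.

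Other cells that can carry Sox17 were examined through their markers. For the bile duct lining, 4 of 8 listed genes were tested and 3 overlapped: Epcam, Krt19 and Sox9, with log2 differences of 0.19, -0.08 and 0.06. Cldn4, a tight junction gene of ducts, had 46.7 and 99.0 in wildtype and 187 and 131 in Sox17+/- liver (log2 difference 1.03, SE 0.36, limma unadjusted p = 0.0349). The wildtype mean of Cldn4, 72.9, was below the median signal of every array (84.7 to 103). Cldn4 thus passed the brightness limit only through the arrays where it was high, which limits what its difference can show. The summed biliary signal was 425 to 454 in wildtype and 442 to 647 in Sox17+/- liver, and the ranges overlapped. Its part in the Sox17 difference was not tested.

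Of 12 genes of fetal blood stem cells 10 were tested, 2 were higher and 3 lower without overlap (all tested genes, 14.6% and 18.6%), and the median log2 difference was -0.14. Procr, a surface receptor of these cells, had 103 and 72.3 in wildtype and 154 and 138 in Sox17+/- liver (log2 difference 0.66, limma unadjusted p = 0.0385). Mllt3, which sustains stem cells, had a log2 difference of 0.64 on its brightest probe set and 0.25 and -0.11 on the others. Hlf, a factor of dormant stem cells that hepatocytes also make, was lower on both of its probe sets (log2 differences -0.29 and -0.73). Slamf1 had -0.43 on its brightest probe set and -0.35 on its second, which overlapped. Mecom was below the brightness limit.

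Endoderm factors, which act with Sox17 in the early gut, were tested for 9 of 13 genes. The median log2 difference was -0.01, with 1 gene lower and 1 higher without overlap (all tested genes, 18.6% and 14.6%). Gata4 had 212 and 225 in wildtype and 141 and 149 in Sox17+/- liver (log2 difference -0.55, SE 0.20, limma unadjusted p = 0.0380). Its other probe set, below the brightness limit, overlapped, with 67.4 and 142 against 40.5 and 75.4. Gata6 and Foxa2 overlapped, with log2 differences of -0.005 and -0.13, and Foxa3 had 0.31. Sox17 protein also binds beta-catenin, and of 11 genes around that partner 7 were tested, with 1 higher and 0 lower without overlap, against the same shares, and a median log2 difference of -0.14. Ctnnb1 itself had a log2 difference of -0.15 and Tcf7l2 of -0.14, and Myc was higher, with 1565 and 1558 in wildtype and 2081 and 2163 in Sox17+/- liver (log2 difference 0.44).

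The genes whose 4 signals ran most like those of the brighter Sox17 probe set were found by the root mean square distance between log2 profiles centred on their own means. Sox13 was the nearest of all tested genes, at a distance of 0.05. It was followed by Il4i1, an amino acid oxidase of immune cells, at 0.05, then 9130019O22Rik, Usp15 and the inositol kinase gene Itpka at 0.07 each. The second Sox17 probe set lay farther off, at 0.21, and 272 of 20165 other probe sets (1.35%) were as near as that. With 4 arrays such likeness is a description only. The Usp15 match came from 1 of its dimmer probe sets, and the brightest probe set of that gene had a log2 difference of -0.03. The profiles nearest to Sox18 were those of Ptpn11, Zfand3 and Stam (0.01 to 0.03), and those nearest to Sox7 were those of Ssbp2, Fdps and Apba1 (0.01 to 0.02). Ptpn11 matched on its dimmest probe set and had a log2 difference of -0.05 on its brightest.

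The tested neighbours of Sox17 on chromosome 1 overlapped between the genotypes. The order of genes was taken from the RefSeq table of assembly GRCm38.p6. Next to Sox17 lie Rp1 and Xkr4 on one side and Mrpl15, Lypla1, Tcea1, Rgs20 and Atp6v1h on the other, and 4 of these 7 were tested. Their log2 differences were -0.12 for Mrpl15, -0.10 for Lypla1, 0.03 for Tcea1 and 0.14 for Atp6v1h, and none separated the groups. Tcea1, an elongation factor gene, had 5556 and 5623 in wildtype and 5454 and 5953 in Sox17+/- liver. Of the dim neighbours, Xkr4 had 59.6 and 47.4 in wildtype and 6.42 and 6.01 in Sox17+/- liver, and Rgs20 had 94.8 and 60.4 against 8.60 and 52.3. Both were lower without overlap but below the brightness limit, as was Rp1, which overlapped.

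Around Sox18 on chromosome 2, 6 of 10 neighbours were tested, with 2 lower and 1 higher without overlap (all tested genes, 18.6% and 14.6%). Prpf6, a splicing factor gene next to Sox18, had 1312 and 1194 in wildtype and 1400 and 1498 in Sox17+/- liver (log2 difference 0.21). Tcea2 and Rgs19, the next genes on the other side, overlapped, with log2 differences of 0.24 and -0.01. The zinc finger gene Zfp512b was lower, with 541 and 558 against 297 and 333 (log2 difference -0.77, SE 0.20, limma unadjusted p = 0.0110). Dnajc5 was lower on its brightest probe set (-0.16) and overlapped on its 4 others. Both immediate neighbours, Prpf6 and Tcea2, pointed the same way as Sox18, by smaller amounts. Tcea2 overlapped, as did the second tested probe set of Prpf6 (log2 difference 0.13).

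Around Sox7 on chromosome 14, 4 of 10 neighbours were tested. Pinx1, the nearest on one side and an inhibitor of telomerase, had 233 and 242 in wildtype and 201 and 208 in Sox17+/- liver (log2 difference -0.20). Fam167a, dim in wildtype, had 60.1 and 88.2 against 110 and 99.0 (log2 difference 0.44), and Mtmr9 and Prss51 overlapped. Over the 14 tested neighbours of the 3 genes the median log2 difference was -0.04, with 3 lower and 2 higher without overlap, against 18.6% and 14.6% of all tested genes.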

How the data were processed

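The deposited table holds 1 intensity value per probe set and array (a MAS5 signal, linear scale, per the submitters' processing notes). With 2% of values cut at either end, each array's mean was 500. Genome build and scanner settings were not given in the sources used here. Of 45101 probe sets, 64 controls were left out. The brighter 50% by mean log2(signal + 16) over all 4 arrays were tested, 22519 in all, standing for 11691 genes. A probe set dim in 1 genotype could thus enter the test through the other. The model had genotype as its only term (limma 3.58.1, R 4.3.3, lmFit and eBayes, two-sided, Benjamini-Hochberg over all tested probe sets, threshold 0.05). The residual degrees of freedom were 2 and the prior added 3.24. A gene in a list is its brightest tested probe set with 1 symbol, and lists are described by counts and medians, with no set test. Of 130 listed genes, 123 were found by symbol, 1 by a RefSeq synonym, and 98 were tested. The labels call the replicates biological without tying them to single fetuses, so p-values measure only the spread between these samples. Their number, 2 per genotype, limits the precision of every value.

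Members, lists and tests were chosen with earlier results of these data known. Named genes were the members, list genes marked for naming, the 2 largest non-overlapping differences per list and direction, the nearest profiles and non-overlapping neighbours. The code was tested on simulated data. The median log2 difference was -0.03 for the hepatocyte list, -0.03 for the pancreas list and -0.37 for the intestine list (Fabp2 alone). Alternatives were offsets of 1 and 64, no brightness limit or the brighter 25%, quantile normalization, median centring, each array left out, the array number as a block, a trended robust prior, the mean over probe sets and the median of the markers.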

Additional observations from a re-analysis of the deposited data

How the results depend on the processing

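All 4 tested SOXF probe sets kept their direction in all 44 alternatives run on them, and none passed (limma, adjusted p of 0.339 or more). Of these alternatives, only median centring and quantile normalization could have turned a direction. The groups did not overlap, so the offsets, the brightness limit, the block, the prior and a left-out array could not. No SOXF probe set was among the brighter 25%, so that limit gives no value for them. With 1 array left out the log2 differences were -0.95 to -0.80 and -1.10 to -0.63 for Sox17, 0.35 to 0.57 for Sox18 and 0.27 to 0.53 for Sox7. With only 2 arrays per genotype, the lone array left in a group is assumed to vary like the other group. On the brighter Sox17 probe set, the difference in the log2 ratio of Sox17 to Sox18 was -1.42 with an offset of 1 and -1.11 with 64. That of Sox17 to Sox7 was -1.38 and -1.03, and that of Sox17 to the pan-endothelial mean was -0.73 with 64.

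The replicate block, with the array number as a term, left the SOXF differences at -0.87, -0.87, 0.46 and 0.40 and gave 951 lower and 742 higher probe sets at an unadjusted p under 0.05, against 521 and 402. The adjusted p was 0.625 for both Sox17 probe sets and 0.685 for Sox18 and Sox7, and 0 probe sets passed. Same-numbered arrays deviated together with r = 0.383 over 22519 probe sets. The array names give same-numbered arrays a shared code, and Alb was high on both arrays numbered 1. The labels do not say whether the code marks a shared litter, batch or day.

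Median centring gave 5 adjusted calls (Hspa1a, Hspa1b and Esm1) and the trended robust prior 3 (Hspa1a and Hspa1b), none in SOXF genes. Unadjusted lower and higher calls were 1330 and 867 with no brightness limit, 216 and 233 in the brighter 25%, and 341 to 689 and 154 to 1229 with 1 array left out. Median centring gave 308 lower calls, and 10.4% of probe sets lower without overlap. The higher share of non-overlapping probe sets was 45.5%, and 61.5% with median centring.

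List medians moved for other SOX genes to 0.055 and for SOXF-linked genes to 0.19 with the mean over probe sets. They moved with no brightness limit to -0.092 (beta-catenin) and -0.14 (endoderm), and in the brighter 25% to 0.0056 (pan-endothelial), -0.0099 (SOXF-linked) and 0.48 (blood stem cells). Median centring gave 0.17 (SOXF-linked) and 0.087 (endothelial transcription factors). With 1 array left out they spanned -0.24 to 0.011 (other SOX), -0.044 to 0.14 (pan-endothelial), -0.086 to 0.19 (sinusoidal), 0.047 to 0.20 (SOXF-linked), -0.14 to 0.035 (endothelial transcription factors), -0.083 to 0.47 (biliary), -0.17 to 0.0063 (blood stem cells) and -0.11 to 0.084 (beta-catenin). The causes were not tested.

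Of the named genes, Stab2, Gata6 and Alb turned to 0.039, 0.042 and 0.043 with median centring, and Gata6 to 0.0043 with quantile normalization. With 1 array left out, log2 differences crossed 0 for Sox6 (-0.50 to 0.19), Sox9 (-0.34 to 0.45), Sox11 (-0.17 to 0.24), Sox12 (-0.30 to 0.011), Cdh5 (-0.020 to 0.26), Stab2 (-0.17 to 0.15), Gja4 (-0.44 to 0.078), Cldn5 (-0.089 to 0.28), Vcam1 (-0.32 to 0.047), Dll4 (-0.11 to 0.55), Erg (-0.14 to 0.23), Fli1 (-0.094 to 0.18), Krt19 (-0.57 to 0.40), Epcam (-0.12 to 0.49), Tcf7l2 (-0.28 to 0.0018), Foxa2 (-0.35 to 0.085), Gata6 (-0.12 to 0.11) and Alb (-0.45 to 0.44).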
